A study of Arabidopsis thaliana with 3 samples.

Results

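The MADS-box genes that specify floral organs were followed at the 3′ ends of their mRNAs in flowers of wild-type Arabidopsis thaliana. The 10 genes were AP1, AP3, PI, AG, SHP1, SHP2, SEP1, SEP2, SEP3 and SEP4, chosen by name through their locus identifiers. The rule used no measured value, but earlier results of these data were known when it was set. All 10 were detected, among 16577 loci with at least 1 read. They gave 565 of the 442916 reads with a measured tail. The tails were measured by TAIL-seq, a method of paired reads that joins a tagged adapter to RNA 3′ ends, so that the tail is sequenced from its end and the mate names the gene. The plants were of the Col-0 genotype, carried no transgene or mutation, and were grown on soil in long days. Total RNA from flowers was made into 3 libraries of biological replicates. They form 1 group, and conditions could not be compared. The labels call the tissue flowers and the study's methods call it flower buds. How many plants went into a library is not given in the sources used here.

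Floral organs are specified by combinations of MADS-domain transcription factors, as described by the ABC model and its extensions. The A function, to which AP1 belongs, specifies sepals and, with the B function of AP3 and PI, petals. The B function with the C function of AG specifies stamens, and AG alone specifies carpels and ends the growth of the floral meristem. SHP1 and SHP2, close relatives of AG, act in carpels, ovules and the valve margins of the fruit, and the SEP proteins are partners that join the others into larger complexes. The poly(A) tail of an mRNA is shortened in the cytosol, and uridines (U) are added to short tails, in Arabidopsis mainly by the terminal uridylyltransferase URT1. A tail is called uridylated here if at least 1 U follows its last A.

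Most tails of these mRNAs ended in A, and 58 of the 565 ended in U. The sequences below, read 5′ to 3′ from the last recorded stretch of As, show the range of uridylated tails found. Capitals mark the added nucleotides. The first 3 show the usual form, a single U, here on stretches of 17 to 20 As, in the 3 genes with most uridylated reads.
AP1, replicate 1: aaaaaaaaaaaaaaaaaU
PI, replicate 2: aaaaaaaaaaaaaaaaaaU
SEP1, replicate 3: aaaaaaaaaaaaaaaaaaaaU
The next 3 mark the limits of length: the shortest stretch that carried a U (7 As, also found once in SEP2), the longest, and the longest in a SEP gene.
SEP1, replicate 1: aaaaaaaU
AP1, replicate 1: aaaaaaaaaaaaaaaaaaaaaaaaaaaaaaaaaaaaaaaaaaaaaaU
SEP2, replicate 1: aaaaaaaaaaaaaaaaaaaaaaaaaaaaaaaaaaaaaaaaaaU
The last 3 are a tail with 2 Us, the only tail with 3 Us, and a tail that ended in C.
PI, replicate 3: aaaaaaaaaUU
SEP1, replicate 2: aaaaaaaaaaaaaaaaaaUUU
PI, replicate 1: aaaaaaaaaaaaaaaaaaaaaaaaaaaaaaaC

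Depth differed between the libraries and set the precision of all values. Replicate 1 held 222681 reads, replicate 2 held 113458 and replicate 3 held 106777. Read names place replicate 1 on a run of its own and replicates 2 and 3 together on a different run, so a difference of replicate 1 and one of its run cannot be told apart. The 10 genes took 375, 99 and 91 reads in replicates 1, 2 and 3, which is 1684, 873 and 852 RPM (reads scaled to the total of the library). A group of 23 mRNAs, 22 that the study followed by 3′RACE-seq and HAM1, moved the other way and took 1.58%, 29.6% and 23.4% of the reads. Without them the 10 genes were at 1711, 1239 and 1113 RPM, and the part of this group in any other difference between libraries was not tested, apart from its removal as an alternative. Markers fitted the label of flowers. All 7 markers of pollen and tapetum were detected with 2444 to 3754 RPM per library, 0 of 3 seed storage genes had a read, and 3 root genes had 2 reads in all. GRP17 gave 974 of the 1484 marker reads, with 436, 333 and 205 in replicates 1, 2 and 3. In this order MS2 had 100, 4 and 8 reads, EXL6 83, 1 and 3, EXL4 76, 4 and 9, and AT5G07230 63, 7 and 5. GRP20 had 68, 36 and 29 reads, and LAP6 had 10, 2 and 2. Several of these markers thus fell more than depth after replicate 1, and the cause was not tested. In whole flowers or buds, fewer cells of a type and less RNA per cell cannot be told apart. Reads per gene are used below as the depth behind each value, and not to rank the genes by expression.

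AP1, which specifies the floral meristem and the outer organs, gave the most reads. AP1 (AT1G69120, chromosome 1, 25982294 to 25986349, minus strand) had 149, 34 and 28 reads in replicates 1, 2 and 3. Of these, 15, 2 and 3 were uridylated, or 10.1%, 5.88% and 10.7%. Replicates 1 and 3 were close and replicate 2 was lower, on 2 uridylated reads. Over all libraries 9.48% of AP1 reads were uridylated (95% Wilson interval 6.22 to 14.2). Intervals here and below cover counting error only. The uridylated tails of AP1 had 10 to 46 As. In tails without added nucleotides, the median length of AP1 was 28, 23.5 and 21 As, so the tails of replicate 1 were the longest. Their lengths ran from 7 to 91 As over all libraries, where 91 is the most that a read could hold.

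The B-class genes AP3 and PI encode partners of 1 heterodimer, and PI had the deeper coverage. PI (AT5G20240, chromosome 5, 6828904 to 6831515, plus strand) had 101, 28 and 35 reads, with 9, 5 and 2 uridylated. This was 8.91%, 17.9% and 5.71%, highest in replicate 2, and 9.76% over all libraries (6.09 to 15.3). The median length of PI tails without added nucleotides was 23, 23 and 21 As and so varied less than that of AP1. AP3 (AT3G54340, chromosome 3, 20119140 to 20121314, minus strand) had 33, 7 and 10 reads. Only 1, 1 and 0 of them were uridylated, or 4% over all libraries (1.1 to 13.5). The 0 of 10 reads in replicate 3 allows a share of up to 30%, so the libraries did not separate. Here and below, the share that a count of 0 allows is 3 reads over the reads seen, and not a Wilson bound. AP3 tails without added nucleotides had medians of 22, 25 and 22.5 As. Pooled, the B-class genes had 18 uridylated of 214 reads, 8.41% (5.39 to 12.9).

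Genes of the C function and its relatives were close to the limit of detection, and no uridylated read was seen. AG (AT4G18960, chromosome 4, 10382856 to 10388539, plus strand), which specifies stamens and carpels, had 7, 1 and 0 reads. Its 8 tails had 16 to 36 As, with a median of 24 As, and 0 of 8 uridylated reads allows a share of up to 37.5%. SHP1 (AT3G58780, chromosome 3, 21738160 to 21742517, plus strand) had 1, 0 and 2 reads, with tails of 22, 23 and 61 As. SHP2 (AT2G42830, chromosome 2, 17820114 to 17824013, plus strand) had 3 reads, all in replicate 1, with tails of 18, 19 and 20 As. For the SHP genes together, 0 of 6 reads allows up to 50%, so no level of uridylation can be given.

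The 4 SEP genes had the highest pooled percentages among the 10, on few reads, and that of SEP1 depended on the libraries used. SEP1 (AT5G15800, chromosome 5, 5151334 to 5154253, minus strand) had 52, 22 and 10 reads, of which 3, 4 and 4 were uridylated. SEP1 uridylation was 5.77% (1.98 to 15.6), 18.2% (7.31 to 38.5) and 40% (16.8 to 68.7) in replicates 1, 2 and 3. Replicate 1 was the lowest and replicate 3 the highest, and their intervals did not overlap. Over all libraries SEP1 was at 13.1% (7.47 to 21.9), without replicate 1, the one of the other run, at 25%, and without replicate 3 at 9.46%. In that last setting PI, at 10.9%, was above SEP1. The same libraries differed in tail length, since the median of SEP1 tails without added nucleotides was 28.5, 23 and 20 As. All other mRNAs moved the same way but less, with 7.4%, 9.95% and 11.6% uridylated and medians of 26, 22 and 22 As.

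SEP2, SEP3 and SEP4, which act largely in overlap with SEP1, were each below the minimum of 20 reads used for the tests. SEP2 (AT3G02310, chromosome 3, 464279 to 467151, minus strand) had 14, 2 and 2 reads, and the 3 uridylated ones all lay in replicate 1, which gives 16.7% (5.84 to 39.2). SEP3 (AT1G24260, chromosome 1, 8593536 to 8596123, minus strand) had 10, 4 and 4 reads, with 3, 1 and 0 uridylated, which gives 22.2% (9 to 45.2). SEP4 (AT2G03710, chromosome 2, 1129229 to 1131838, plus strand) had 5, 1 and 0 reads, with 2 uridylated in replicate 1, which gives 33.3% (9.68 to 70). The 4 SEP genes together had 20 uridylated of 126 reads, 15.9% (10.5 to 23.2), with 13.6%, 17.2% and 25% in replicates 1, 2 and 3. Their interval overlapped that of the B-class genes but lay above the 9.07% of all other mRNAs. In each library the SEP genes were above all other mRNAs, which had 7.4%, 9.95% and 11.6%. The intervals of replicates 2 (7.6 to 34.5) and 3 (10.2 to 49.5) nevertheless held the value of the others. SEP1 gave 84 of the 126 reads, and the difference of this group was not tested. Median lengths over all libraries were 25 As for SEP2, 19 As for SEP3 and 32 As for SEP4, on 14, 13 and 4 tails.

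**Figure D1:**
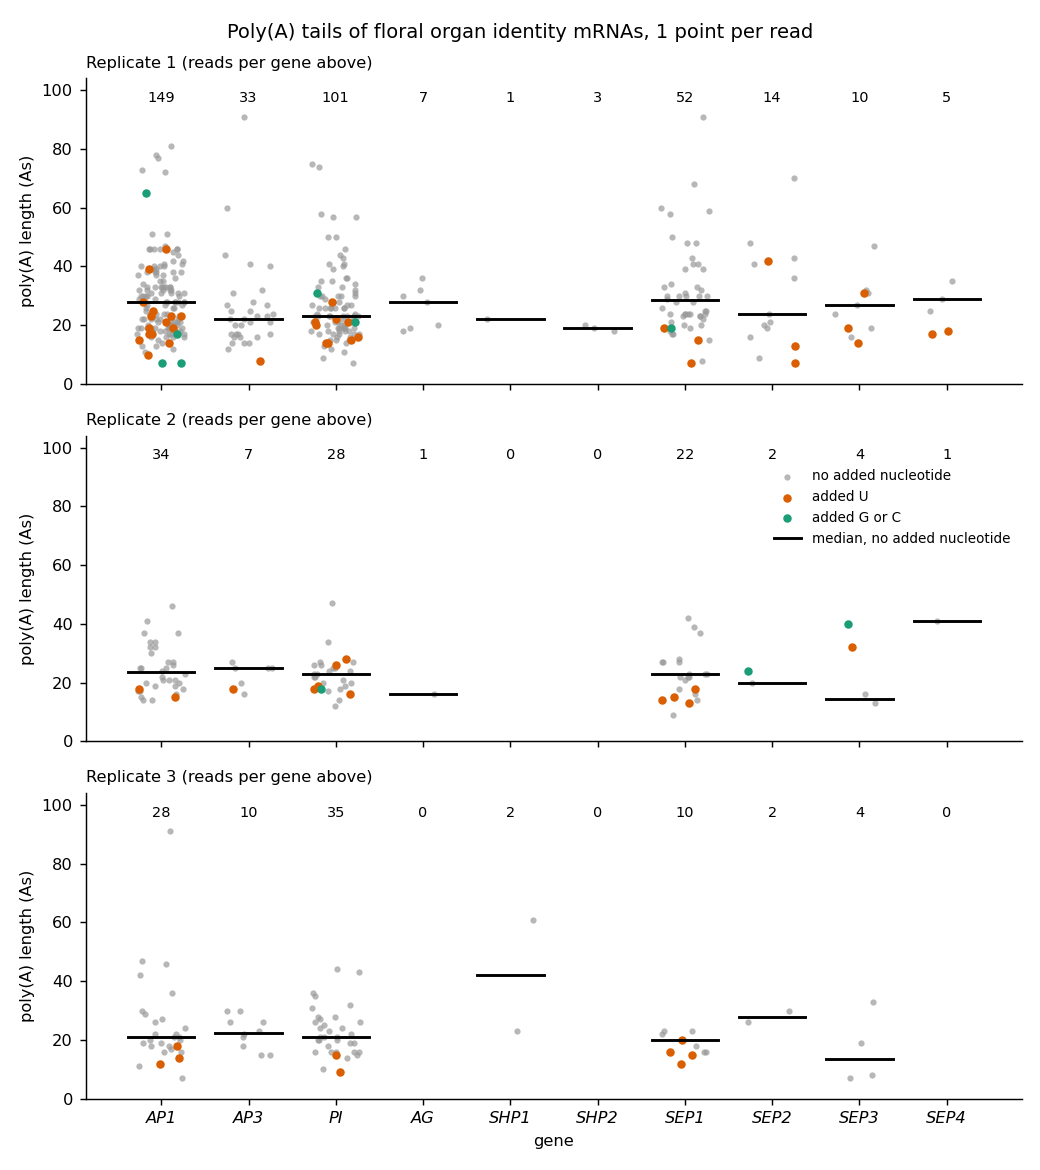
Each point is the poly(A) length (number of As) of 1 read, by gene and in 1 panel per replicate, coloured by the added nucleotide, with the median of tails without added nucleotides as a bar and the reads per gene above. Most points of all genes lie between 10 and 50 As, uridylated tails lie mostly below 25 As, and AP1, PI and SEP1 hold most of the reads.

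At this depth the genes in the plot of single tails could not be ranked. In order of their pooled uridylation the genes were SEP4, SEP3, SEP2, SEP1, PI, AP1 and AP3, followed by AG, SHP1 and SHP2 without a uridylated read. No pair of the 7 genes with a uridylated read had intervals that stood apart: the highest lower bound was 9.68%, for SEP4, and the lowest upper bound was 13.5%, for AP3. In order of their pooled median lengths AP1 stood at 26 As, SEP1 at 24.5, PI at 23 and AP3 at 22.5 As. The quartiles of these 4 genes, 19 to 34 As for AP1, 22 to 33 for SEP1, 19 to 29 for PI and 17 to 27 for AP3, overlapped throughout.

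**Figure D2:**
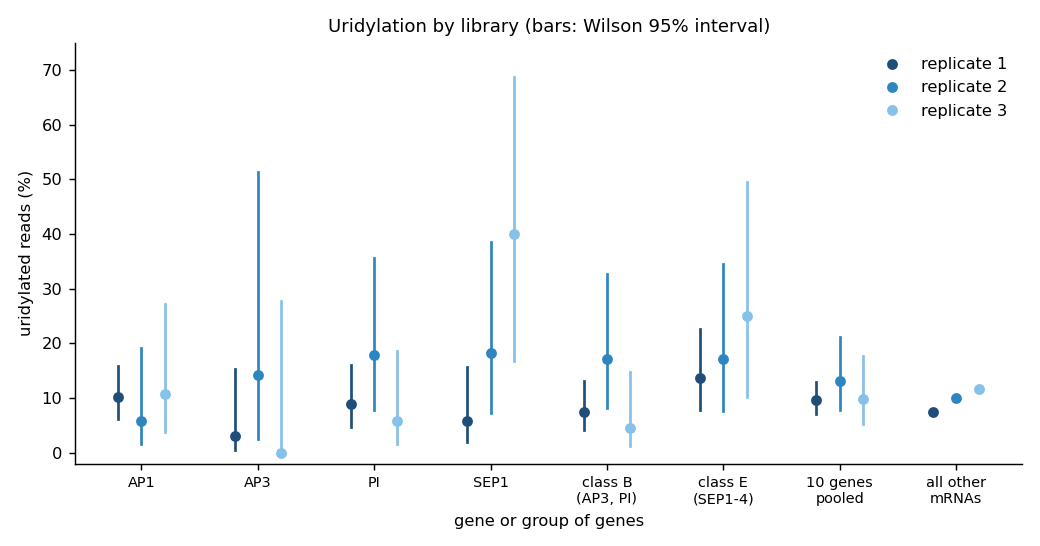
Percentage of reads with at least 1 added U (vertical axis) in each replicate for the 4 genes with at least 20 reads, the B-class and SEP genes, the 10 genes pooled and all other mRNAs, with 95% Wilson intervals as bars. SEP1 runs between 5.77% and 40% over the libraries, and the pooled genes (9.6% to 13.1%) lie close to all other mRNAs (7.4% to 11.6%).

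Each mRNA with at least 20 reads was then compared with all other mRNAs, with library as stratum. In the Cochran-Mantel-Haenszel test of uridylation, 327 of 3439 mRNAs were above all other mRNAs (9.51% of those tested) and 198 were below (5.76%), at a Benjamini-Hochberg adjusted p under 0.05. Of the 10 floral genes 4 could be tested, and 0 were called in either direction. At an unadjusted p under 0.05 the count was also 0 of 4. For AP3 a call below was out of reach: even 0 uridylated of its 50 reads would not have passed either threshold. For SEP1, 0 of its 84 reads would have passed the unadjusted threshold only, so a call below was open to AP1 and PI alone. Adjusted p of this test was 0.928 for AP1, 0.686 for AP3, 0.987 for PI and 0.507 for SEP1. With 4 genes, shares of called mRNAs such as those among all tested correspond to less than 1 gene. The 4 genes had a median uridylation of 9.62%, and all mRNAs tested had a median of 8%. Among the tested mRNAs, SEP1 stood at percentile 72.2, PI at 59.6, AP1 at 57.5 and AP3 at 23. These medians and percentiles used reads pooled over libraries and so also carry the mix of libraries. AP1, for example, had 149 of its 211 reads in replicate 1, where all other mRNAs were least uridylated. SEP2 and SEP3 entered the same test with a minimum of 10 reads, with adjusted p of 0.836 and 0.424. Their reads were also too few for a call below.

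Tail length gave the same count. In the stratified rank sum test (van Elteren) of tails without added nucleotides, 259 of 3033 mRNAs had longer tails than all other mRNAs (8.54%) and 189 had shorter ones (6.23%). The 4 floral genes tested gave 0 calls in either direction, and 0 of 4 at an unadjusted p under 0.05. AP3 was nearest to a call, on the short side: 42.2% of the tails of other mRNAs were shorter than an AP3 tail, ties counted equally, with an adjusted p of 0.223 in the rank sum test (n = 48 tails). By library this share was 38.8%, 50.4% and 48.2% for AP3, so its low value came from replicate 1. In the same rank sum test this share was 46% for PI (n = 145 tails, adjusted p = 0.286), 51.9% for AP1 (n = 187 tails, adjusted p = 0.623) and 53.2% for SEP1 (n = 72 tails, adjusted p = 0.597). In each library the share for AP1 lay between 50.6% and 52.9%, so this gene was close to the centre of all tails throughout. For SEP1 it was 55.7%, 52.5% and 36.1% in replicates 1, 2 and 3, lowest in the library with 6 such tails. Depth limits these counts: a p above the threshold does not show that a gene had the tails of other mRNAs.

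Read as one pool, the 10 genes were close to all other mRNAs in both measures. The floral genes had 36, 13 and 9 uridylated reads in replicates 1, 2 and 3, or 9.6%, 13.1% and 9.89%, against 7.4%, 9.95% and 11.6% in all other mRNAs. They were thus higher in replicates 1 and 2 and lower in replicate 3. The mean was 10.9% ± 1.96 for the floral genes and 9.66% ± 2.12 for all other mRNAs (SD, n = 3 libraries). The difference within libraries was 1.21 ± 2.6 percentage points, smaller than its spread between libraries. Median length was 26, 23 and 22 As in the floral genes and 26, 22 and 22 As in all other mRNAs, a difference of 0.333 ± 0.577 As. No p is given for the pool, since its members were chosen with earlier results of these data known.

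**Figure D3:**
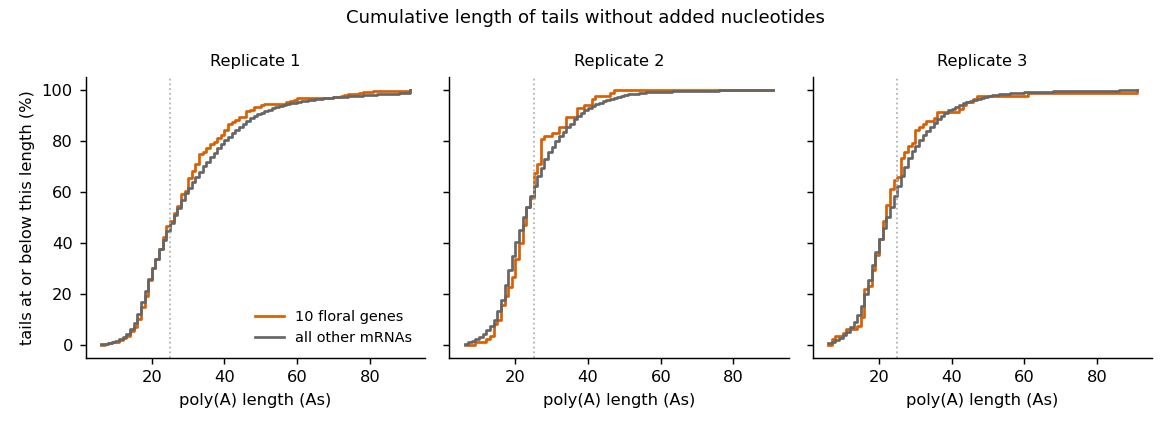
Cumulative percentage of tails without added nucleotides (vertical axis) against poly(A) length in As (horizontal axis) for the 10 floral genes and all other mRNAs, with 1 panel per replicate and a dotted line at 25 As. The curves cross near their medians of 22 to 26 As, and the floral curve lies above that of all other mRNAs around 40 As in replicates 1 and 2.

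The plot of cumulative lengths shows differences in shape, on 83 and 82 floral tails in replicates 2 and 3. In replicate 2, 26.5% of floral tails had at most 19 As, against 35% in all other mRNAs. In replicates 1 and 3 these shares were close, at 25.3% and 35.4% against 25.7% and 36.5%. The upper range differed in each library. In replicate 1 the upper quartile was 34 As in the floral genes and 37 As in all other mRNAs. In replicates 2 and 3 it was 27 As in both for the floral genes, against 29 As in both for all other mRNAs. Tails over 25 As made up 51.5%, 32.5% and 34.1% of floral tails without added nucleotides. In all other mRNAs the share was 52.1%, 37.7% and 37.7%. The order of the 4 tested genes in this share changed with the library: SEP1 had 56.2%, 38.9% and 0% in replicates 1, 2 and 3, and AP3 had 31.2%, 16.7% and 40%. The 3 tails at the limit of 91 As were 1 each of AP1, AP3 and SEP1, and their true lengths are unknown.

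The length distributions nearest to that of the floral pool were looked up among single mRNAs. Likeness was measured by the Kolmogorov-Smirnov distance, the largest gap between 2 cumulative curves, over the 666 mRNAs with at least 100 tails without added nucleotides. The nearest were AT1G08360 (distance 0.0217, 346 tails), DIR1 (0.0299, 645 tails) and AT2G17360 (0.0301, 790 tails). AT1G08360 and AT2G17360 code for ribosomal proteins, and DIR1 codes for a lipid-transfer protein of systemic resistance. Their medians were 24.5, 24 and 24 As, and the pooled floral tails had a median of 24 As. All other reads together were at a distance of 0.0415, and the median over the 666 mRNAs was 0.0957. These distances are given with no test. They were taken on tails pooled over libraries, and replicate 1, with the longer tails, gave 332 of the 497 floral tails but 204484 of the 398886 tails of all other mRNAs, so they also carry the mix of libraries.

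Within the 10 genes uridylation went with short tails. Tails of 10 to 25 As were uridylated in 14.4%, 14.9% and 13.6% of reads in replicates 1, 2 and 3. Tails over 25 As were uridylated in 3.35%, 9.68% and 0% of reads, on 6 of 179, 3 of 31 and 0 of 28 reads. The shorter class was higher in all 3 libraries, by 9.96 ± 4.27 percentage points (SD, n = 3 libraries). Among the 14 tails under 10 As, 4 were uridylated, 28.6% (11.7 to 54.6). No stretch under 6 As was recorded, so the shortest tails are missing from these shares.

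All other mRNAs had the same order of classes. Over all libraries the share in tails of 10 to 25 As was 14.4% (10.9 to 18.7) in the floral genes and 13.7% in all other mRNAs. In tails under 10 As it was 28.6% in the floral genes and 27.7% in all other mRNAs. In tails over 25 As it was 3.78% (2 to 7.03) in the floral genes and 1.75% (1.69 to 1.81) in all other mRNAs, so that the interval of the floral genes excluded the value of the others. By library, however, this last class was higher in replicates 1 and 2 (3.35% and 9.68%, against 1.61% and 1.96%) and held 0 of 28 reads in replicate 3, which allows up to 10.7%, against 1.92%.

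**Figure D4:**
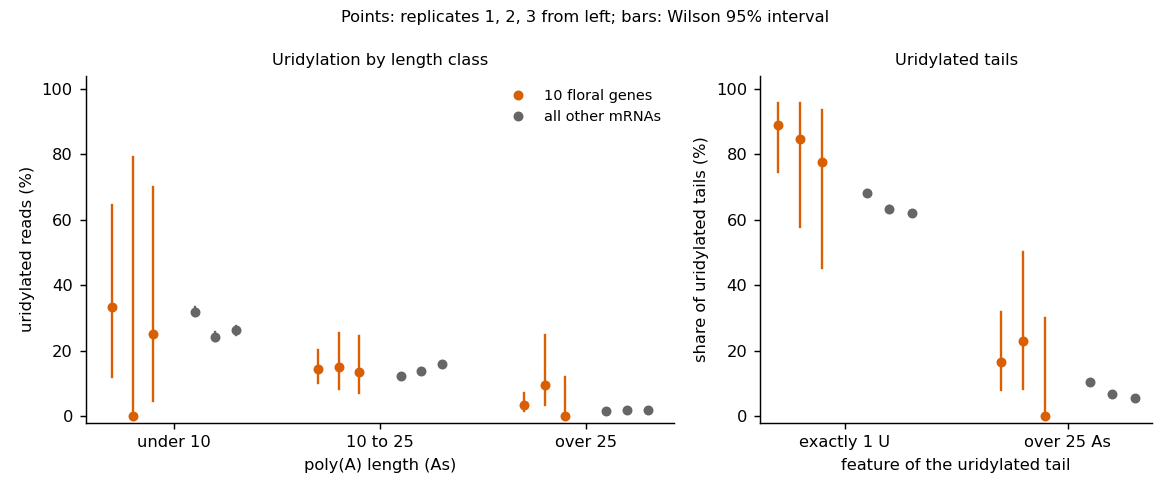
Left, percentage of uridylated reads by poly(A) length class. Right, percentage of uridylated tails with exactly 1 U and with over 25 As. Points are replicates 1, 2 and 3 from the left, with 95% Wilson intervals, for the 10 floral genes and all other mRNAs, and single-U tails of the floral genes (77.8% to 88.9%) lie above those of all other mRNAs (62% to 68.2%).

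Uridylated floral tails mostly carried a single U. This measure and the lengths of uridylated tails were chosen after their values were seen, so they are described without a test. Exactly 1 U was found on 50 of the 58 uridylated floral tails, 86.2% (75.1 to 92.8), 7 tails had 2 Us and 1 had 3. By library single-U tails were 88.9%, 84.6% and 77.8% in the floral genes, against 68.2%, 63.2% and 62% in all other mRNAs. The floral genes were higher in all 3 libraries, by 19.3 ± 3.05 percentage points (SD, n = 3 libraries). With the 23 mRNAs of the 3′RACE-seq group taken out of the others, the difference was 15.6 points.

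The share of single-U tails was less unusual gene by gene. Over the 701 mRNAs with at least 10 uridylated reads its median was 72.2%, with quartiles of 60% and 82.4%. SEP1 was at 90.9% (10 of 11 tails, percentile 90.7), AP1 at 85% (17 of 20, percentile 80.5) and PI at 81.2% (13 of 16, percentile 70.9). All 3 were above the median, and PI was within the quartiles. Gene-level medians weigh each mRNA equally, which the percentage over all reads does not.

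Uridylated floral tails carried more As in 2 of the 3 libraries. Their median was 19, 18 and 15 As in replicates 1, 2 and 3, against 15 As in each library for all other mRNAs. Among uridylated tails, 25%, 38.5% and 66.7% of those of the floral genes had 11 to 16 As in replicates 1, 2 and 3, against 49.8%, 49.7% and 52.7% of those of all other mRNAs. The floral share was thus lower in replicates 1 and 2 and higher in replicate 3. AP1 and PI each had a median of 18.5 As in their uridylated tails, pooled over libraries, at percentile 96.1 of the same 701 mRNAs, whose quartiles were 15 and 16.5 As. By library the medians were 21, 16.5 and 14 As for AP1 and 20, 19 and 12 As for PI, so both genes were above the 15 As of all other mRNAs in replicates 1 and 2 and below it in replicate 3. SEP1 was at 15 As pooled, percentile 34.5. Over 25 As were found in 15.5% of uridylated floral tails (8.38 to 26.9), against 8% in all other mRNAs. These 9 tails belonged to AP1 (28, 39 and 46 As), PI (26, 28 and 28 As), SEP3 (31 and 32 As) and SEP2 (42 As). The difference in this share was 5.57 ± 10.9 points (SD, n = 3 libraries) and so was not larger than its spread.

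The gene models of the 10 genes differed in the features near the tail. In the RefSeq annotation of the genome, the 3′ UTR of the longest mRNA was 207 to 751 bases long, from SHP2 to SHP1, with a median of 298 bases, against a median of 261 bases (quartiles 188 and 369) over 23613 genes. SHP1, AP1, SEP4 and SEP2, with 751, 605, 499 and 456 bases, lay above the upper quartile, and none of the 10 lay below the lower one. The 4 genes with most reads spanned much of this range, with the 605 bases of AP1, 307 in PI, 288 in AP3 and 260 in SEP1. The letters AATAAA, the classical polyadenylation signal, were searched on the sense strand in the last 50 bases of each mRNA. They were present in SHP2 alone, 10% of the floral genes, and in 11% of the genes annotated. A match describes letters and not a used site.

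Relatives of these genes were counted from a list of 29 other MIKC-type MADS-box genes. Of these, 17 were detected with 165 reads, and 1 could be tested. That gene was FUL (annotated as AGL8), the close relative of AP1 that acts in the inflorescence meristem and the fruit. FUL had 63 reads, 6.35% of them uridylated, with an adjusted p of 0.929 in the Cochran-Mantel-Haenszel test. Its tails had a median of 21 As, and 40.4% of the tails of other mRNAs were shorter, with an adjusted p of 0.0657 in the rank sum test. STK, the ovule gene closest to the SHP genes, had 19 reads, and all of them were in replicate 1.

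A list of 30 other regulators of flower development held 23 detected genes with 128 reads, and 1 of them was tested and called. ANT, which promotes the growth of floral organs, was uridylated in 20%, 50% and 57.1% of its reads in replicates 1, 2 and 3. Over all libraries this was 33.3% of 33 reads (19.8 to 50.4), above all other mRNAs with an adjusted p of 5.91e-05 in the Cochran-Mantel-Haenszel test. The call of ANT held on weaker values in several alternatives. Adjusted p was 0.000545 in the same test with an overdispersion factor and 0.00145 in the Fisher exact test on pooled reads. In the Cochran-Mantel-Haenszel test it was 0.0048 without replicate 2 (29.6% of 27 reads) and 0.0149 without replicate 3 (26.9% of 26 reads). Without replicate 1, or with a minimum of 50 reads, ANT had too few reads to be tested. Its tail length was not called (n = 22 tails, adjusted p = 0.422 in the rank sum test). When at least 2 Us were required, ANT was at 12.1% (n = 33 reads) and the call was lost, with an adjusted p of 0.104 in the Cochran-Mantel-Haenszel test.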

How the data were processed

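Per the study's methods and the submitters' processing notes, reads of ribodepleted RNA were collapsed by a random tag of 15 cycles, aligned to TAIR10 (HISAT2 2.1.0, then Bowtie2) and given genes by bedtools 2.17.5. The deposited table gives, per read and gene, how many As and added nucleotides the tail has and the class the authors gave it, in nucleotides and not normalized. It held 455742 rows, of which 172 repeats were dropped. Of the loci, 16496 matched RefSeq TAIR10.1, which gave symbols, positions and gene models. No read of the 10 genes was shared with another gene.

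Each mRNA with at least 20 reads was compared with all other mRNAs by two-sided tests with library as stratum: Cochran-Mantel-Haenszel with continuity correction for uridylation and van Elteren's rank sum for length (Python 3.11.15, scipy 1.17.1). Both were tested on simulated data and treat reads as independent. The p-values were Benjamini-Hochberg adjusted over all mRNAs. The genes and lists were chosen with earlier results of these data known. Named were the 10 genes, tested genes of the lists if called, and the 3 mRNAs nearest in length. FUL, STK and AP2 were named after their values were seen. Alternatives left out each replicate, shared reads or the 3′RACE-seq mRNAs, and changed definitions, minima, weights, class bounds and tests.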

Additional observations from a re-analysis of the deposited data

Results flagged for a closer look

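Tails that ended in G or C were outside the comparisons made and were seen above the limit that a count of 0 allows. They made up 1.77% of the reads of the 10 floral genes (10 of 565, 95% Wilson interval 0.964 to 3.23), against 0.751% in all other mRNAs. By library this was 1.87%, 3.03% and 0% in the floral genes, against 0.613%, 0.933% and 0.845% in all other mRNAs. Of the 10 tails, 4 ended in G and 6 in C, and they came from AP1 (4), PI (3), SEP1, SEP2 and SEP3 (1 each). The difference was not tested.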

How the results depend on the processing

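Under every alternative run, 0 of the 3 to 6 floral genes that could be tested were called in uridylation or in length. Unadjusted p did fall under 0.05 in some. For AP3 length it was 0.0436 without replicate 2, 0.0446 without replicate 3 and 0.0395 without tails at the length limit (rank sum test). In the Cochran-Mantel-Haenszel test it was 0.0356 for the share of AP3 tails over 25 As. For SEP1 uridylation without replicate 1 that test gave 0.0166. AP3, SEP2 and SEP3 had too few reads for a call below in uridylation, and so had SEP1 in the main test. When at least 2 Us were required, or replicate 1 was left out, such a call was out of reach for every floral gene tested. In these settings the count of 0 below was thus fixed in advance. The call counts over all mRNAs followed the reads available: leaving out 1 replicate gave 102 to 207 mRNAs above and 73 to 145 below in uridylation, and 114 to 215 with longer and 61 to 180 with shorter tails, lowest each time without replicate 1, the deepest. With 1 replicate left out, 1523 to 2835 mRNAs were tested in uridylation and 1299 to 2531 in length. With a minimum of 10 reads 590 of 6046 mRNAs tested were above in uridylation and 189 below. With 50 reads 123 of 1474 were above and 213 below, so that calls below then outnumbered those above. Requiring at least 2 Us gave 193 above and 97 below among 3439 mRNAs tested. It put the 10 genes at 1.76% and their difference from all other mRNAs at -1.72 points. It turned the direction of AP1 (1.42%), PI (1.83%), SEP1 (1.19%) and FUL (3.17%). It also ended the call of ANT (12.1%). Uncalled directions turned without replicate 1 for AP1 (8.06%), FUL (12%) and the length of SEP1 (22.5 As), and without replicate 2 for PI (8.09%). With single replicates left out, uridylation ran between 8.06% and 10.2% for AP1, 8.09% and 11.1% for PI, 9.46% and 25% for SEP1 and 3.92% and 12% for FUL, and the length of SEP1 between 22.5 and 26.5 As. The share of SEP1 tails over 25 As (47.2%) also turned its direction. The difference in median length became -0.333 As over all tails, with or without the added nucleotides counted. FUL passed the threshold in length with a minimum of 50 reads (n = 59 tails, adjusted p = 0.0411, rank sum test). The single-U difference was 15.6 points without the 3′RACE-seq mRNAs, an alternative chosen after the data were seen. The causes were not tested. No paired analysis was possible because the libraries form 1 group; library was the stratum of both tests.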

Other observations

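AP2, an A-function gene outside the MADS-box family whose mRNA is a target of a microRNA, was looked at after its values were seen. It had 15 reads, below the minimum of 20 used for the tests, and 9 of them were uridylated, 60% (35.7 to 80.2). These were 7 of 11 reads in replicate 1, 0 of 1 in replicate 2 and 2 of 3 in replicate 3. With a minimum of 10 reads AP2 was above all other mRNAs in the Cochran-Mantel-Haenszel test (n = 15 reads, adjusted p = 1.6e-09 over 6046 mRNAs), and the uridylated reads lay in 2 of the 3 libraries. That p comes from a large-sample approximation, which so few reads do not meet, so its size is not reliable. No exact test was run with this minimum.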
